A study of Mus musculus with 4 samples.

Results

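Transcripts of aquaporin genes were measured by RNA sequencing in primary ductal cells of the mouse pancreas, grown in culture. The 9 genes described here are Aqp1, Aqp2, Aqp3, Aqp4, Aqp5, Aqp7, Aqp8, Aqp9 and Aqp11, of 22869 gene symbols in the deposited tables. They were chosen by name, and each gene is represented by its transcript with the highest mean count over the 4 libraries. The 2 libraries labelled KO came from mice carrying Sox9CreER and floxed Hhex alleles (Sox9CreER;HhexL/L), and the 2 control libraries from littermates with the floxed alleles alone (HhexL/L). All mice were adult C57BL/6 animals not induced in life, and cells of both groups received 500 nM 4-hydroxytamoxifen in culture for 4 days. Cre was driven by the Sox9 promoter and was carried by the KO group alone, so an effect of Cre and an effect of the Hhex alleles cannot be told apart. The libraries are called KO 1, KO 2, control 1 and control 2 below.

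Aquaporins are channel proteins that let water cross membranes along osmotic gradients, and they assemble as tetramers in which each subunit has its own pore. Aqp1, Aqp2, Aqp4 and Aqp5 are classed as water channels, Aqp3, Aqp7 and Aqp9 as aquaglyceroporins that also pass glycerol, and Aqp11 as an unorthodox member found inside the cell. In the pancreas, duct cells secrete a bicarbonate-rich fluid, with water following the ions, and AQP1 and AQP5 are the channels best known in that epithelium.

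The pore of an aquaporin is lined by a pair of short loops that each carry the residues Asn-Pro-Ala, the NPA box. The coding sequence around the second box is shown for 8 of the genes because it is the part by which the family and its glycerol-passing branch are recognised. The codons of the box are in capitals, and sequences are from the GRCm38 assembly through GENCODE release M21 transcripts matched to the deposited RefSeq accessions.
Aqp1: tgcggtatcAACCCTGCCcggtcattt
Aqp2: tgctccatgAATCCAGCCcgctccctg
Aqp5: tgttccatgAACCCAGCCcgatctttc
Aqp8: gcctgcatgAACCCTGCTcgtgccttt
Aqp3: tatgccgtcAACCCTGCCcgtgacttt
Aqp7: tatgcaatcAACCCATCCcgtgacctg
Aqp9: tgtgccatgAACCCTGCTcgagacctc
Aqp11: gcattgtttAACCCAGCGctggcactt
The box read Asn-Pro-Ser in Aqp7 and Asn-Pro-Ala in the other 7 genes. The second codon after the box was gac, for aspartate, in the aquaglyceroporins Aqp3, Aqp7 and Aqp9, and a serine codon in the water channels Aqp1, Aqp2 and Aqp5. Aqp8, a water channel as well, had gcc there, and Aqp11 had gca, both for alanine. Aqp4 is not shown. The Aqp5 stretch lies on the plus strand at chr15:99593261-99593287 in exon 3, the Aqp1 stretch on the plus strand at chr6:55345828-55345854 in exon 3, the Aqp9 stretch on the minus strand at chr9:71122841-71122867 in exon 5, and the Aqp11 stretch on the minus strand at chr7:97729044-97729070 in exon 2. The first box also varied.
Aqp5, first box: ggccacatcAATCCGGCCattactctg
Aqp7, first box: gcccacatgAATGCCGCAgtgactttc
Aqp11, first box: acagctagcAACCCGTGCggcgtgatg
It read Asn-Pro-Ala in Aqp5, Asn-Ala-Ala in Aqp7 and Asn-Pro-Cys in Aqp11, the change by which Aqp11 is set apart from the rest of the family.

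The libraries held 39582625 (KO 1) and 30835777 (KO 2) counts, against 25513289 (control 1) and 25257778 (control 2). Levels within a gene are given as CPM, the count relative to the TMM-scaled library size, and levels between genes as the authors' deposited RPKM, which divides by transcript length. Hhex, the targeted gene, had 23.6 and 39.0 CPM in the libraries labelled KO, against 24.8 and 17.7 CPM in the controls, so the count of this transcript was not lower in the libraries labelled KO (log2 fold change 0.55 ± 0.27 SE, edgeR adjusted p = 0.734). The count is of the whole transcript, so whether the floxed part of the gene was lost was not tested. The labels are used as names of the groups. Sox9, whose promoter drives the Cre, had 52.3 and 44.3 CPM in the libraries labelled KO, against 18.0 and 21.4 CPM in the controls (log2 fold change 1.30 ± 0.17 SE, edgeR adjusted p = 0.0512). The 12 ductal markers, among them keratins, Epcam and Sox9, all passed the filter on low counts. Their summed level was 16854 and 13610 CPM in the libraries labelled KO, against 12945 and 15442 CPM in the controls. Krt18 was the largest part, with 9242 and 6234 CPM in the libraries labelled KO, against 6531 and 8094 CPM in the controls. Single markers went both ways, with 7 log2 fold changes positive, 5 negative and 0 called by edgeR. Muc1 had 1.79 and 7.35 CPM in the libraries labelled KO, against 22.7 and 19.2 CPM in the controls. For Tspan8 these were 88.0 and 99.1 CPM, against 48.4 and 67.7 CPM. Xist, the RNA that coats the inactive X chromosome of female cells, had 0.750 and 304 CPM in KO 1 and KO 2, against 1.75 and 0.892 CPM in the controls, so KO 2 stood apart from the other 3 libraries. Each group is 2 mice per the labels, and p-values measure the spread between these libraries.

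Most aquaporin transcripts were rare in these cells. Of the 9 genes, 7 stayed under 1 RPKM in every library, and the median gene in the tables had 0.775 to 0.793 RPKM. Aqp11 was the most abundant aquaporin in KO 1, control 1 and control 2, where it stood at the 53.8th, 56.8th and 59.8th percentile of all genes. In KO 2 that place was taken by Aqp5, at the 92.8th percentile. By mean RPKM over the 4 libraries the order was Aqp5 (7.52 ± 13.5), Aqp11 (1.59 ± 0.596), Aqp1 (0.568 ± 0.0894), Aqp9 (0.316 ± 0.150), Aqp7 (0.165), Aqp3 (0.125), Aqp8 (0.0758), Aqp2 (0.0580) and Aqp4 (0.0545), with SD over n = 4 libraries. Aqp11 and Aqp1 were the one pair of neighbours in this order whose ranges over the libraries did not overlap. Aqp5 exceeded Aqp11 in 1 of 4 libraries, so its first place rests on KO 2. Aqp1 exceeded Aqp9, and Aqp9 exceeded Aqp7, in each of the 4 libraries, although the ranges of each pair overlapped.

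**Figure D1:**
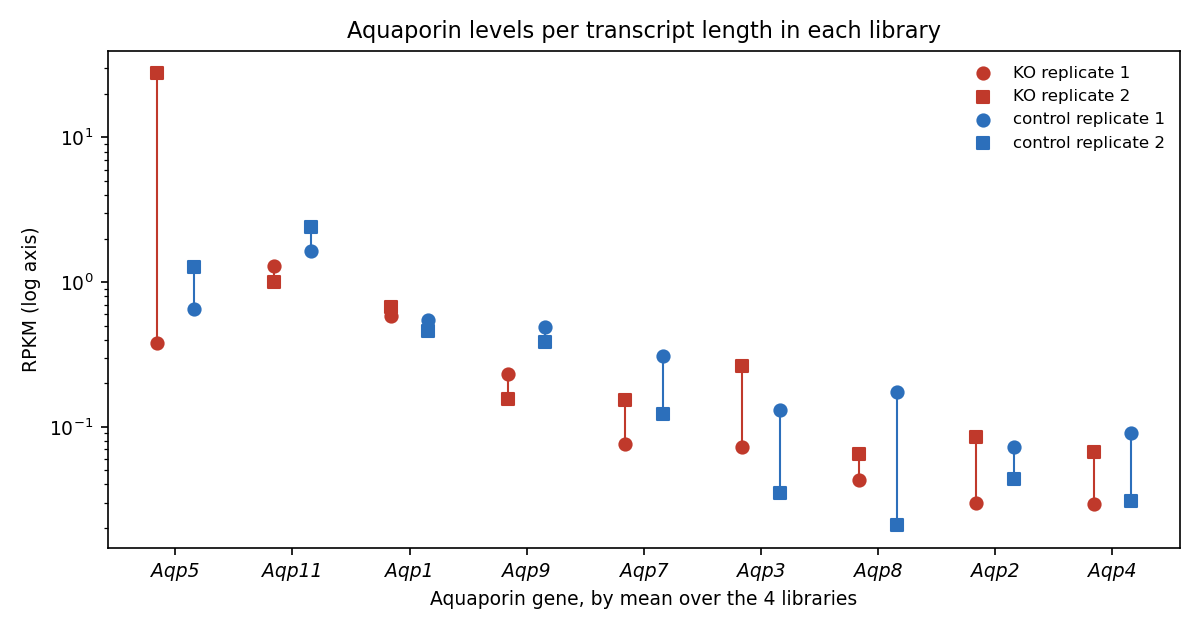
RPKM of each of the 9 aquaporins (log axis) in every library, with the libraries labelled KO left of the controls for each gene, and genes in order of their mean. Aqp5 spans 0.383 to 27.8 RPKM with KO 2 far above the other 3 libraries, while Aqp11 lies between 1.01 and 2.39 RPKM and 7 genes lie under 1 RPKM throughout.

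The libraries were compared to ask how aquaporin transcripts differ between cells labelled Hhex KO and control cells. No aquaporin passed the test. Of the 9 genes, 6 had enough counts to be tested with edgeR's quasi-likelihood test (Benjamini-Hochberg adjustment over 20949 transcripts, threshold 0.05), and 0 of these 6 were called in either direction, where 0.153% of all transcripts tested were called (0.105% higher and 0.0477% lower). At an unadjusted p under 0.05, 3 of the 6 passed, 1 higher (Aqp5) and 2 lower (Aqp9 and Aqp11) in the libraries labelled KO, where 7.51% of all transcripts passed (4.7% higher and 2.81% lower). DESeq2, which fitted all 9, also called 0, with 0 at an unadjusted p under 0.05, and edgeR's exact test called 0, with 2 at an unadjusted p under 0.05. Aqp4 had no adjusted p in DESeq2, so DESeq2 could not call it. A limma-trend test on log2(RPKM + 1) called 0, with 3 at an unadjusted p under 0.05. The levels of the groups did not overlap for 2 of the 9 genes, both lower in the libraries labelled KO, where 17.4% of all transcripts in the tables were lower without overlap and 15.4% higher. Among the transcripts tested these shares were 17.0% and 19.1%. In RNA from whole cultures, fewer cells that express a gene and less RNA of it per cell cannot be told apart.

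**Figure D2:**
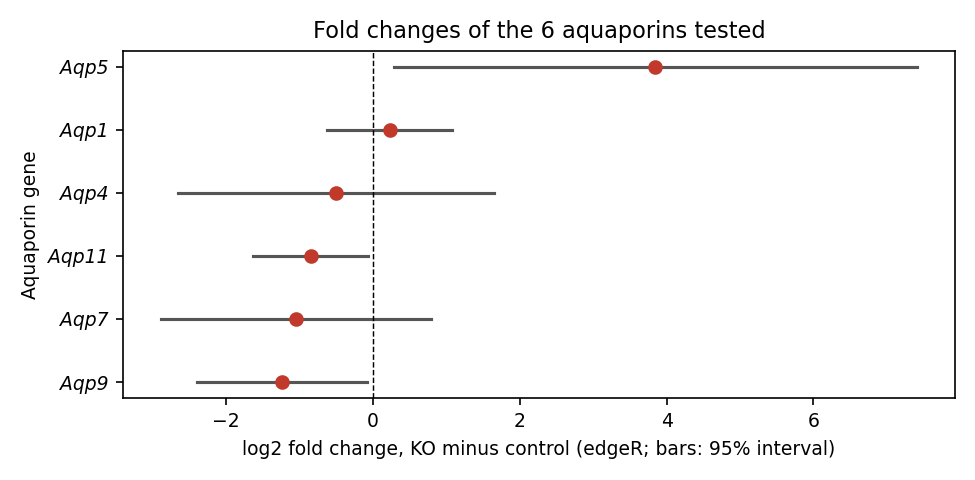
log2 fold change of each of the 6 aquaporins tested (x axis, KO minus control, edgeR), with bars for the 95% interval. The intervals of Aqp5, Aqp9 and Aqp11 leave out 0 without adjustment, the lowest adjusted p of the 6 is 0.601, and the interval of Aqp5, 0.29 to 7.41, is the widest.

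Aqp5, a water channel of the apical membrane of secretory epithelia, was high in a single library. It had 28 counts in KO 1 and 1773 counts in KO 2, against 39 in control 1 and 64 in control 2. In CPM these were 0.750 and 57.2 in the libraries labelled KO, against 1.42 and 2.59 in the controls. KO 1 was thus the lowest of the 4 libraries and KO 2 the highest, so the control values lay between the 2 libraries labelled KO. The intervals that counting error allows (exact Poisson, 95%) were 0.498 to 1.08 CPM in KO 1 and 54.6 to 59.9 CPM in KO 2, against 1.01 to 1.94 CPM in control 1 and 2.00 to 3.31 CPM in control 2. These intervals cover counting error alone, and the values of KO 1 and KO 2 lie far outside each other's interval.

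The mean of Aqp5 was 28.97 ± 39.9 CPM in the libraries labelled KO and 2.01 ± 0.830 CPM in the controls (SD, n = 2 each). The fitted fold change was 14.4, and its 95% interval ran over 1.22 to 170.006 (log2 fold change 3.85 ± 1.52 SE, edgeR adjusted p = 0.603, and 0.0377 before adjustment). The direction depended on which library was left out. Without KO 1 the log2 fold change was 4.82, and without KO 2 it was -1.41. In these fits the KO group rests on a single library, and its spread is assumed to be like that of the controls. The level of KO 2 was 76.3 times that of KO 1, and of 15892 genes tested, 9 differed more between the libraries labelled KO on the log2 CPM scale. Between the controls, 2249 genes differed more than Aqp5.

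Genes that stood out in one library in this way were few. With a level of at least 5 CPM and at least 8 times that of the highest other library, a rule chosen after the values were seen, 7 of 22869 genes stood out in KO 2 and 2 in KO 1, against 0 in either control. The 7 of KO 2 were Aqp5, 2210010C17Rik, D730005E14Rik, Elmod1, Wisp2, Xist and Tsix, the antisense partner of Xist. KO 2 was thus also the library with Xist, and what part the sex of the animal has in the Aqp5 level was not tested.

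The 5 genes most like Aqp5 over the 4 libraries were taken by the root mean square difference of centred log2 CPM, among 10194 genes with a mean of at least 5 CPM. This likeness rests on 4 values per gene and is a description with no test. Nearest was Wisp2, at a difference of 0.61, with 0.750 and 29.4 CPM in the libraries labelled KO, against 2.44 and 2.27 CPM in the controls. Then came 2210010C17Rik, at 0.90, with 0.750 and 31.9 CPM in the libraries labelled KO, against 0.729 and 0.405 CPM in the controls. Both had their highest level in KO 2, with the other 3 libraries under 3 CPM. D730005E14Rik (1.13), Gldc (1.16), which encodes the glycine decarboxylase of mitochondria, and Bex4 (1.33) followed. Gldc had 6.59 and 50.4 CPM in the libraries labelled KO, against 4.12 and 4.99 CPM in the controls.

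**Figure D3:**
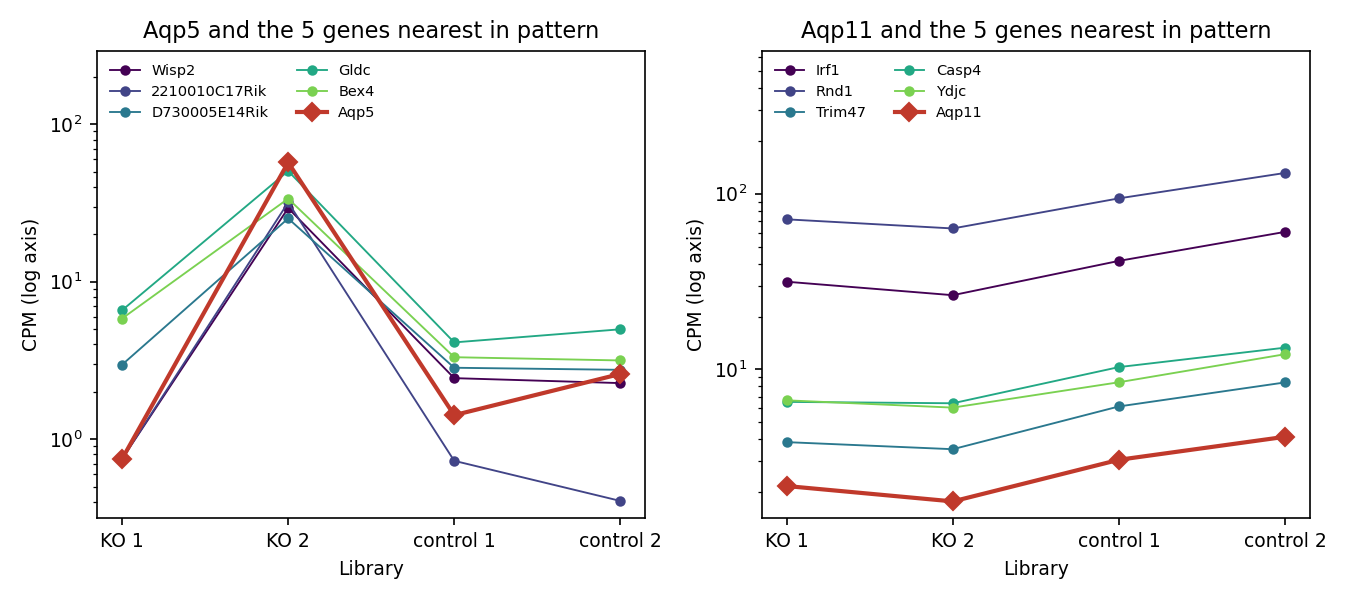
CPM (log axis) of Aqp5, left, and Aqp11, right, with the 5 genes nearest in pattern to each, in the 2 libraries labelled KO and the 2 controls. The genes near Aqp5 share a peak in KO 2, and those near Aqp11 lie lower in the libraries labelled KO than in the controls.

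Aqp5 lies on chromosome 15 beside Aqp2 and Aqp6, in the annotated order Bcdin3d, Faim2, Aqp2, Aqp5, Aqp6 and Racgap1. Aqp2, the vasopressin-regulated channel of the kidney collecting duct, had 0.0536 and 0.161 CPM in the libraries labelled KO, against 0.146 and 0.0811 CPM in the controls. Aqp6, a channel of intracellular vesicles, had 0.107 and 0.645 CPM in the libraries labelled KO, against 0.692 and 0.203 CPM in the controls. Neither of these adjacent genes showed the high level of Aqp5 in KO 2. Farther out, Bcdin3d had 5.33 and 5.32 CPM in the libraries labelled KO, against 4.59 and 3.93 CPM in the controls, and Faim2 had 0.429 and 2.58 CPM in the libraries labelled KO, against 2.48 and 0.851 CPM in the controls. Racgap1, which acts in cell division, had 13.4 and 16.4 CPM in the libraries labelled KO, against 9.22 and 7.91 CPM in the controls (edgeR adjusted p = 0.309).

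**Figure D4:**
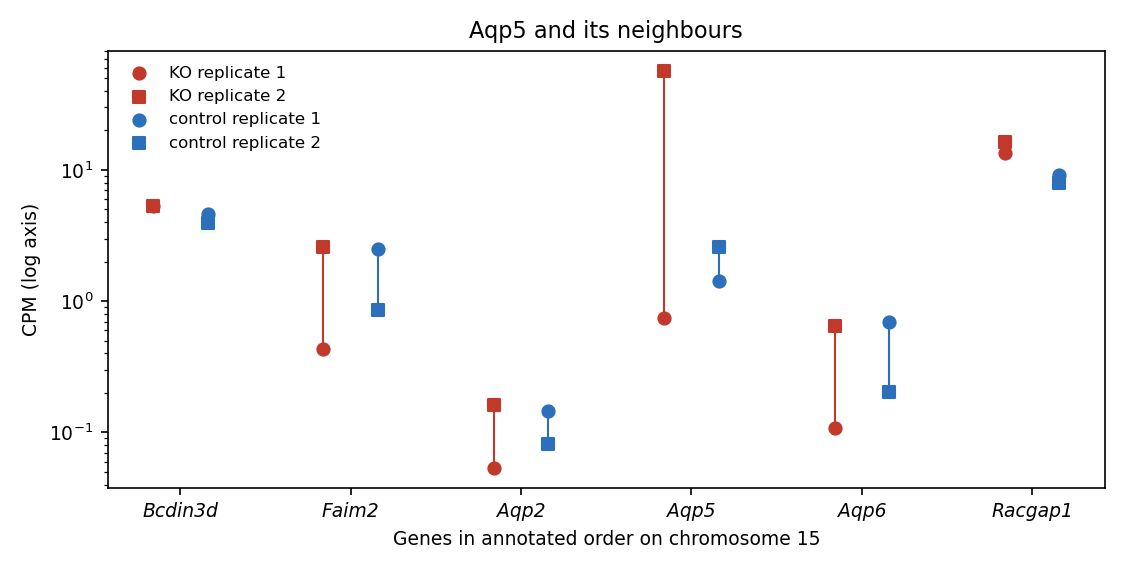
CPM (log axis) of Aqp5 and the genes beside it in annotated order on chromosome 15, in each library, with the libraries labelled KO left of the controls. KO 2 is far above the other libraries for Aqp5, at 57.2 CPM, and Aqp2 and Aqp6 stay under 1 CPM in every library.

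Aqp11, which resides in the endoplasmic reticulum, was lower in both libraries labelled KO, without passing the test. It had 81 and 55 counts in KO 1 and KO 2, against 84 and 102 counts in the controls. In CPM these were 2.17 and 1.77 in the libraries labelled KO, against 3.06 and 4.14 in the controls. The lowest control lay above the higher KO library, although the counting intervals of KO 1 (1.72 to 2.70 CPM) and control 1 (2.44 to 3.79 CPM) overlapped. The means were 1.97 ± 0.280 CPM in the libraries labelled KO and 3.598 ± 0.760 CPM in the controls (SD, n = 2 each). The level was 1.80 times higher in the controls (log2 fold change KO minus control -0.85 ± 0.33 SE, 95% interval -1.63 to -0.07, edgeR adjusted p = 0.601, and 0.0370 before adjustment).

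The genes nearest to Aqp11 in pattern were taken in the same way, again with no test. Their differences cannot be set against those for Aqp5, since a gene with a wider range of levels tends to larger ones. Nearest were Irf1, an interferon-induced transcription factor, at a difference of 0.05, and Rnd1, a small GTPase, at 0.07. Trim47 at 0.08, Casp4, an inflammatory caspase, at 0.09, and Ydjc at 0.10 followed. Irf1 had 31.6 and 26.5 CPM in the libraries labelled KO, against 41.5 and 60.6 CPM in the controls. Casp4 had 6.54 and 6.42 CPM in the libraries labelled KO, against 10.3 and 13.3 CPM in the controls.

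Aqp9, an aquaglyceroporin best known from hepatocytes, was also lower in both libraries labelled KO without passing the test. It had 29 and 17 counts in KO 1 and KO 2, against 50 and 33 counts in the controls. In CPM these were 0.777 and 0.548 in the libraries labelled KO, against 1.82 and 1.34 in the controls. The groups did not overlap, but the counting intervals of KO 1 (0.520 to 1.12 CPM) and control 2 (0.921 to 1.88 CPM) did. The means were 0.663 ± 0.162 CPM in the libraries labelled KO and 1.58 ± 0.342 CPM in the controls (SD, n = 2 each), and the level was 2.36 times higher in the controls (log2 fold change KO minus control -1.24 ± 0.50 SE, 95% interval -2.40 to -0.08, edgeR adjusted p = 0.616, and 0.0398 before adjustment).

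Of the marker lists of other cells, those of hepatocytes and of fibroblasts had lower sums in both libraries labelled KO. The mesothelial list, which shares Krt19 with the ductal one, had higher sums in both. It summed to 3693 and 5503 CPM in the libraries labelled KO, against 2211 and 2767 CPM in the controls. Of its 5 genes tested, 3 had a positive and 2 a negative log2 fold change. The 8 hepatocyte markers summed to 53.4 and 5.42 CPM in the libraries labelled KO, against 87.0 and 60.7 CPM in the controls, with Trf, the iron carrier transferrin, making up most of it in 3 of the libraries. Alb, which defines hepatocytes, had 0.0536 and 0.323 CPM in the libraries labelled KO, against 0.765 and 0.243 CPM in the controls, so that marker was near 0 throughout. All 4 hepatocyte markers tested had a negative log2 fold change, where 47.95% of all genes tested were positive. The 3 adipocyte and 3 islet markers tested were also all negative. Apob, an apolipoprotein, had 0.804 and 1.32 CPM in the libraries labelled KO, against 4.81 and 5.35 CPM in the controls (log2 fold change -2.28 ± 0.36 SE, edgeR adjusted p = 0.0907). The 10 fibroblast and stellate markers summed to 9.54 and 11.9 CPM in the libraries labelled KO, against 25.8 and 21.7 CPM in the controls, and of the 8 tested, 8 had a negative log2 fold change and 0 were called by edgeR (1 at an unadjusted p under 0.05). Sparc, a matrix protein, made the largest difference in this sum, with 4.53 and 3.48 CPM in the libraries labelled KO, against 11.99 and 13.1 CPM in the controls (log2 fold change -1.63 ± 0.23 SE, edgeR adjusted p = 0.0606). Dcn and Lum, which define fibroblasts, were at most 0.129 and 0.255 CPM in any library. The part of these cells in the levels of Aqp9 and Aqp11 was not tested.

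Aqp1, the water channel of duct epithelium and of capillary endothelium, differed little between the groups. It had 76 and 77 counts in KO 1 and KO 2, against 59 and 41 counts in the controls, or 2.04 and 2.48 CPM in the libraries labelled KO, against 2.15 and 1.66 CPM in the controls. The groups overlapped, since control 1 lay between the libraries labelled KO. The log2 fold change was 0.23 ± 0.36 SE (edgeR adjusted p = 0.940), and its 95% interval, -0.62 to 1.08, includes changes of about 1 log2 unit upward and smaller ones downward. The 9 endothelial markers summed to 4.04 and 8.68 CPM in the libraries labelled KO, against 11.8 and 4.78 CPM in the controls. The part of endothelial cells in the Aqp1 level was not tested.

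Aqp7, the glycerol channel of fat cells, and Aqp4, the water channel of astrocytes, were near the lower limit of the test. Aqp7 had 9 and 16 counts in KO 1 and KO 2, against 30 and 10 counts in the controls, or 0.241 and 0.516 CPM in the libraries labelled KO, against 1.09 and 0.405 CPM in the controls (log2 fold change -1.05 ± 0.78 SE, 95% interval -2.89 to 0.78, edgeR adjusted p = 0.871). Its log2 fold change was -0.14 without control 1, -1.52 without control 2, -0.59 without KO 1 and -1.67 without KO 2, and it was not called in any of these fits. Aqp4 had 7 and 14 counts in KO 1 and KO 2, against 18 and 5 counts in the controls, or 0.188 and 0.452 CPM in the libraries labelled KO, against 0.656 and 0.203 CPM in the controls (log2 fold change -0.51 ± 0.92 SE, 95% interval -2.66 to 1.64, edgeR adjusted p = 0.944). For both genes control 1 was the highest library, and the groups overlapped. Adipocyte markers, the cells in which Aqp7 is best known, summed to 1.42 and 1.94 CPM in the libraries labelled KO, against 3.97 and 1.26 CPM in the controls, and their 7 members were all under 1 CPM in every library.

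Aqp2, Aqp3 and Aqp8 had too few counts to be tested with edgeR. Aqp2 had 2 and 5 counts in KO 1 and KO 2, against 4 and 2 counts in the controls. Aqp3, an aquaglyceroporin of the basolateral membrane of epithelia, had 6 and 19 counts in KO 1 and KO 2, against 9 and 2 counts in the controls. Aqp8, a water channel of the apical membrane of rodent acinar cells, had 3 and 4 counts in KO 1 and KO 2, against 10 and 1 counts in the controls. In all 3 genes the groups overlapped, and none was at 0 in any library. Aqp8 has 2 transcripts in the tables with identical counts, so they are not separate measurements. Aqp3 and Aqp7 are next to each other on chromosome 4. Acinar markers summed to 3.59 and 5.52 CPM in the libraries labelled KO, against 6.23 and 2.92 CPM in the controls, and Amy2a5, a pancreatic amylase, was at 0 counts in all 4 libraries.

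The 5 rarest aquaporins were also set beside genes of sensory receptors. The 5 aquaporins with a mean under 1 CPM (Aqp2, Aqp3, Aqp4, Aqp7 and Aqp8) summed to 0.723 and 1.87 CPM in the libraries labelled KO, against 2.59 and 0.811 CPM in the controls. As a yardstick chosen after the values were seen, 1466 receptor genes of the olfactory, vomeronasal and trace amine families summed to 105 and 134 CPM in the libraries labelled KO, against 205 and 135 CPM in the controls. Control 1 was the highest library in both sums and KO 1 the lowest, although Aqp2 and Aqp3 taken singly were highest in KO 2. The sums parted in KO 2, where the rare aquaporins were at 2.31 and the receptor genes at 0.992 times control 2. Aqp1, Aqp9 and Aqp11 together summed to 4.98 and 4.81 CPM in the libraries labelled KO, against 7.03 and 7.14 CPM in the controls; control 1 was at 0.985 times control 2. What part of the low aquaporin counts comes from a background shared with the receptor genes was not tested.

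**Figure D5:**
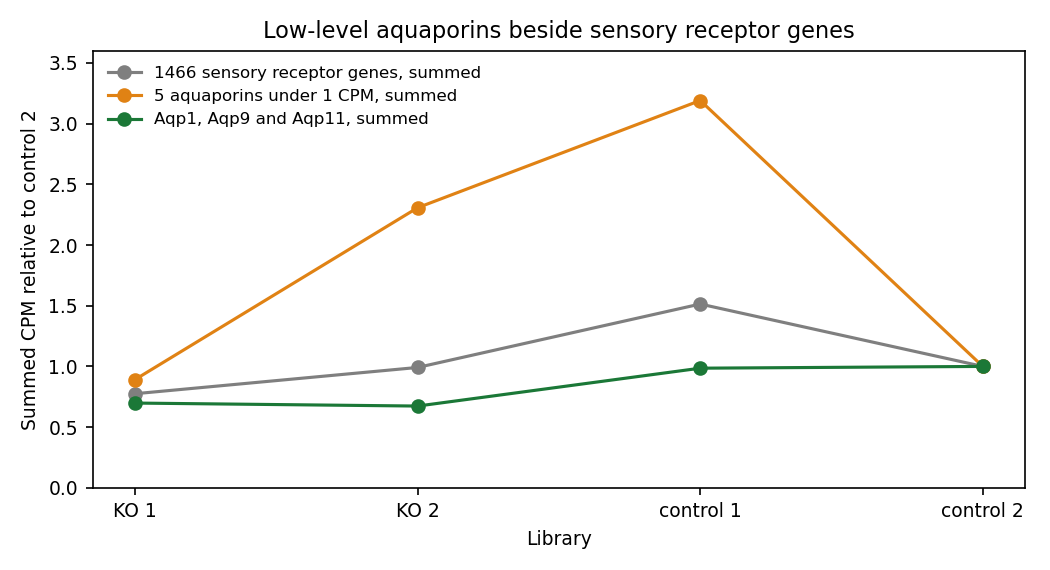
Summed CPM relative to control 2 (y axis, linear from 0) in each library, for the receptor genes, for the 5 aquaporins under 1 CPM and for Aqp1, Aqp9 and Aqp11. The sums of the receptor genes and of the rare aquaporins are highest in control 1, at 1.51 and 3.19 times control 2, where the other 3 aquaporins are at 0.985 times control 2. In KO 2 the receptor genes are at 0.992 and the rare aquaporins at 2.31 times control 2.

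Over all 9 aquaporins the summed level was 2.75 and 30.2 RPKM in KO 1 and KO 2, against 4.10 and 4.77 RPKM in the controls. Aqp5 made up 13.9% and 91.8% of these sums in KO 1 and KO 2, against 15.8% and 26.8% in control 1 and control 2. Leaving Aqp5 out, the sums were 2.37 and 2.48 RPKM in the libraries labelled KO, against 3.46 and 3.49 RPKM in the controls. By CPM, 17.4% of all single transcripts in the tables were lower in both libraries labelled KO without overlap. The sums without Aqp5 were also lower without overlap, but they are RPKM over several genes, on another library scaling. Aqp11 was their largest part, with 1.30 and 1.01 RPKM in the libraries labelled KO, against 1.64 and 2.39 RPKM in the controls. The sums are therefore not a result separate from that of Aqp11.

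The remaining members of the family were as rare. Aqp6, Aqp12 and Mip, the channel of lens fibre cells, were each under 1 CPM in every library. Aqp12, known from acinar cells, had 0.0804 and 0.194 CPM in the libraries labelled KO, against 0.109 and 0.122 CPM in the controls. Of these 3 genes, 1 was tested (Aqp6, log2 fold change -0.38, edgeR adjusted p = 0.963).

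Proteins that set up the ion gradient that water follows were also not called by edgeR. Of 20 genes of ductal fluid and bicarbonate secretion, 19 were tested and 0 were called, with 2 at an unadjusted p under 0.05, and DESeq2 called 1, Cftr. Without KO 1 edgeR called 2 of them, where 7.86% of all transcripts were called, and without KO 2 it called 5, where 8.69% were. Their log2 fold changes were positive in 9 and negative in 10, with a median of -0.05, beside -0.01 over 15892 genes tested. Of those genes, 7.49% had an unadjusted p under 0.05 in edgeR. Over all transcripts, DESeq2 called 207 higher and 96 lower. Cftr, the chloride and bicarbonate channel of the apical membrane, had 13.1 and 22.9 CPM in the libraries labelled KO, against 33.6 and 35.1 CPM in the controls (log2 fold change -0.94 ± 0.25 SE, edgeR adjusted p = 0.344). Cftr was thus lower in both libraries labelled KO without overlap, as Aqp11 and Aqp9 were. Atp1b1, a subunit of the sodium pump, had 219 and 132 CPM in the libraries labelled KO, against 95.5 and 106 CPM in the controls (log2 fold change 0.80, edgeR adjusted p = 0.412).

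Genes that move aquaporins to the membrane, through vasopressin receptors, cyclic AMP and vesicle traffic, numbered 20, of which 18 were tested. None was called by edgeR or by DESeq2, with 3 at an unadjusted p under 0.05 in each. Among all genes tested with edgeR, 47.95% had a positive log2 fold change (median -0.01) and 7.49% an unadjusted p under 0.05. In this list 12 of the 18 were positive, with a median of 0.16. Without KO 1 edgeR called 3 of them and without KO 2 it called 2, beside the same 7.86% and 8.69% of all transcripts. Nedd4l, a ubiquitin ligase that acts on membrane channels, had 73.1 and 75.0 CPM in the libraries labelled KO, against 46.3 and 54.5 CPM in the controls (log2 fold change 0.55, edgeR adjusted p = 0.338). Adcy9, an adenylyl cyclase, had 22.3 and 23.6 CPM in the libraries labelled KO, against 13.9 and 17.6 CPM in the controls (edgeR adjusted p = 0.479). Prkacb, a catalytic subunit of protein kinase A, had 84.2 and 73.5 CPM in the libraries labelled KO, against 56.9 and 59.8 CPM in the controls (edgeR adjusted p = 0.487).

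The handling of glycerol, which Aqp3, Aqp7 and Aqp9 pass, was described by 16 genes, of which 15 were tested and 0 called by edgeR or by DESeq2, with 3 and 4 at an unadjusted p under 0.05 in these tools. Of all genes tested with edgeR, 47.95% had a positive log2 fold change (median -0.01) and 7.49% an unadjusted p under 0.05. In this list log2 fold changes were positive in 11 and negative in 4, with a median of 0.07. With KO 1 or KO 2 left out, edgeR called 3 of them, beside 7.86% and 8.69% of all transcripts. Pnpla2, the lipase that begins the breakdown of triglycerides, had 26.1 and 26.4 CPM in the libraries labelled KO, against 15.4 and 16.4 CPM in the controls (log2 fold change 0.72, edgeR adjusted p = 0.210). Gyk, the kinase that traps glycerol in the cell, had 55.2 and 24.8 CPM in the libraries labelled KO, against 17.5 and 23.1 CPM in the controls (log2 fold change 0.98, edgeR adjusted p = 0.532). Gpd1l, related to glycerol-phosphate dehydrogenase, had 44.5 and 52.9 CPM in the libraries labelled KO, against 31.4 and 38.7 CPM in the controls (edgeR adjusted p = 0.531). The separation of the groups was narrow for Gyk, where KO 2 lay just above control 2.

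Of 12 genes of the response to osmotic stress, all 12 were tested and 0 were called by edgeR's quasi-likelihood test, with 2 at an unadjusted p under 0.05, while DESeq2 and edgeR's exact test each called 1, Wnk1. Without KO 1 the quasi-likelihood test of edgeR called 3 and without KO 2 it called 5, beside 7.86% and 8.69% of all transcripts. Wnk1, a chloride-sensing kinase, had 255 and 262 CPM in the libraries labelled KO, against 135 and 168 CPM in the controls (log2 fold change 0.77 ± 0.17 SE, edgeR adjusted p = 0.210). Trpv4, a calcium channel opened by cell swelling, had 39.6 and 35.6 CPM in the libraries labelled KO, against 22.6 and 24.6 CPM in the controls (log2 fold change 0.68 ± 0.15 SE, edgeR adjusted p = 0.227). Oxsr1, a kinase downstream of Wnk1, had 148 and 132 CPM in the libraries labelled KO, against 110.03 and 115 CPM in the controls (edgeR adjusted p = 0.695). Log2 fold changes in this list were positive in 10 and negative in 2, with a median of 0.18, and 47.95% of all genes tested were positive. Of all genes tested, 7.49% had an unadjusted p under 0.05 in edgeR's quasi-likelihood test. Over all transcripts, DESeq2 called 207 higher and 96 lower, and edgeR's exact test called 174 higher and 96 lower.

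Some aquaporins also pass hydrogen peroxide, and 21 genes of its sources and removal were listed, of which 20 were tested. None was called by edgeR or DESeq2, with 0 at an unadjusted p under 0.05 in each, and the median log2 fold change was 0.05. Without KO 2 edgeR called 4 of them, beside 8.69% of all transcripts. Catalase (Cat) had 103 and 75.7 CPM in the libraries labelled KO, against 63.2 and 71.7 CPM in the controls (edgeR adjusted p = 0.695). The smallest p-values after it were those of Prdx6, a peroxidase (log2 fold change 0.36), and Cyba, a subunit of NADPH oxidases (log2 fold change -0.30).

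The dystrophin complex that anchors AQP4 in astrocytes and muscle was described by 8 genes. Of these, 7 were tested and 0 were called by edgeR or DESeq2, with 1 at an unadjusted p under 0.05 in each. Over all genes tested with edgeR, 47.95% had a positive log2 fold change (median -0.01) and 7.49% an unadjusted p under 0.05. In this list all 7 were positive, with a median of 0.27. With KO 1 or KO 2 left out, edgeR called 1 of them, beside 7.86% and 8.69% of all transcripts. Dag1, dystroglycan, had 44.9 and 62.6 CPM in the libraries labelled KO, against 34.1 and 38.6 CPM in the controls (log2 fold change 0.56, edgeR adjusted p = 0.503). Dmd, dystrophin, had 42.0 and 23.0 CPM in the libraries labelled KO, against 18.8 and 26.2 CPM in the controls (edgeR adjusted p = 0.767), so KO 2 lay between the controls.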

How the data were processed

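RNA was isolated with a Qiagen kit and libraries were made with an Illumina TruSeq v2 kit, per the labels' protocols. The authors deposited whole-number counts and RPKM values, 1 line per RefSeq transcript (28644 transcripts). The deposited counts were not normalized, and the deposited RPKM values are scaled by length and library total. The total that the RPKM values imply differs from that of the deposited counts. Relative to control 1 it was 0.832 in control 2, 1.22 in KO 1 and 1.06 in KO 2. For the counts these were 0.990, 1.55 and 1.21. Per the submitters' processing notes, the build was mm9 and edgeR was used. Aligner, counter and strand setting are not given in the sources used here.

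Counts were tested in R 4.3.3 with edgeR 4.0.16 (filterByExpr with minimum count 10 and minimum total 15, TMM, quasi-likelihood F test, KO minus control, Benjamini-Hochberg over 20949 transcripts), checked first on simulated data. The common coefficient of variation was 0.234, with 2 residual degrees of freedom. Intervals are 95% and, for single libraries, exact Poisson. With 2 against 2 libraries the smallest two-sided exact permutation p is 0.333. Alternatives were other scalings, filters and transcript choices, edgeR's exact and robust tests, DESeq2 1.42.0, limma 3.58.1 on log2(RPKM + 1) and log2(RPKM + 0.1), no X and Y genes, and each library left out.

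Named genes were the 9 members, Hhex, Sox9, up to 3 genes with the smallest p of each list, and the 5 nearest in pattern to Aqp5 and Aqp11. Of these, 2 list genes are not reported here. Other names, and the genes beside Aqp5, were chosen after their values were seen. The members and lists were chosen with earlier results of these data known. Gene order, chromosomes and box sequences come from GRCm38 annotation, and no coordinates were converted. No sample was left out.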

Additional observations from a re-analysis of the deposited data

How the results depend on the processing

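The 6 aquaporins tested kept their direction and stayed uncalled, Aqp4 with DESeq2 for lack of an adjusted p. This held in all 76 combinations of an aquaporin with an alternative that used every library. Log2 fold changes there ran over 0.11 to 0.27 for Aqp1, -0.59 to -0.02 for Aqp4, 1.70 to 3.85 for Aqp5 (adjusted p 0.273 to 0.910 over edgeR, DESeq2 and limma), -1.14 to -0.12 for Aqp7, -1.32 to -0.27 for Aqp9 and -0.93 to -0.48 for Aqp11. With a library left out, 20 of 24 results kept direction and call. The log2 fold change of Aqp5 ran from -1.41 (without KO 2) to 4.82 (without KO 1, called), and that of Aqp4 from -1.23 to 0.60, reversed without control 1 (0.60) and without KO 1 (0.0064). That of Aqp7 ran from -1.67 to -0.14, of Aqp9 from -1.56 to -0.99, of Aqp11 from -1.06 to -0.59 and of Aqp1 from 0.07 to 0.43. The cause was not tested. No paired analysis was possible because the labels share no replicate numbers between the groups.

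Over all transcripts, 22 were called higher and 10 lower. These counts were 0 and 5 with library totals or upper-quartile factors, 0 and 4 with a filter at 1 CPM, 174 and 96 with edgeR's exact test, 45 and 19 with the robust test, 207 and 96 with DESeq2, 125 and 65 with limma on log2(RPKM + 1), 149 and 72 on log2(RPKM + 0.1), 11 and 3 with counts summed per symbol, and 0 and 2 with 1 transcript per gene. Without the filter, 6 were called lower. Leaving out a library gave 0 to 1181 higher and 0 to 860 lower: 882 and 860 without KO 1, 1181 and 730 without KO 2, 0 and 0 without control 1, and 0 and 3 without control 2. The group then left with 1 library is assumed to vary like the other.

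Among the lists, DESeq2 called 1 gene of ductal fluid secretion and 1 of osmotic stress, and edgeR's exact test called 1 of osmotic stress. With a library left out, calls, all without KO 1 or KO 2, ran from 0 to 5 for ductal fluid and for osmotic stress, 0 to 4 for hydrogen peroxide, 0 to 3 for vasopressin and for glycerol, and 0 to 1 for the dystrophin complex. List medians were set against the SD between libraries of a group, pooled over both groups, a yardstick chosen after the values were seen. By it 83 of 118 medians moved less than that SD. The vasopressin median was 0.092 with library totals, 0.12 with upper-quartile factors, 0.10 with no filter, 0.13 with DESeq2, 0.23 with limma on either RPKM scale (0.23 and 0.23), and 0.060 to 0.23 with a library left out. The glycerol median was -0.013 with library totals, 0.013 with upper-quartile factors, 0.12 with a filter at 1 CPM, 0.12 with log2(RPKM + 0.1), and 0.012 to 0.18 with a library left out. The hydrogen peroxide median was -0.027 with library totals, 0.037 with RLE factors, -0.0022 with upper-quartile factors, 0.032 with no filter, 0.030 with a filter at 1 CPM, 0.083 with the exact test, 0.068 with DESeq2, 0.10 and 0.12 with limma on log2(RPKM + 1) and log2(RPKM + 0.1), 0.023 with 1 transcript per gene, 0.10 without X and Y genes, and 0.013 to 0.15 with a library left out. With a library left out the medians ran from -0.27 to 0.10 for ductal fluid, 0.073 to 0.34 for osmotic stress, 0.015 to 0.32 for the dystrophin complex and -0.86 to 1.12 for the remaining family, of which 2 genes were tested in these fits and 1 with all libraries. Summing RPKM over transcripts gave Aqp8 a mean of 0.151 RPKM. Counts of 1 to 30 per library limit Aqp2, Aqp3, Aqp4, Aqp7 and Aqp8.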
